A study of Mus musculus with 29 samples.

Results

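PPARA, a fatty acid-activated nuclear receptor, and the genes of fatty acid oxidation that it is known to control were followed in the livers of mice given the MDM2 inhibitor HDM201. The module was a fixed list of 35 gene symbols covering mitochondrial and peroxisomal beta-oxidation, ketone body production and other PPARA targets. Its members were found by matching symbols in the table of read counts, which lists 55421 genes. All 35 were found, each once, and all 35 passed the filter on low counts in every comparison. Old mice were C57BL/6J, 20 months old in females and 24 months old in males, and young mice were C57BL6/N of 5 months. The study's methods give slightly different ages for the old females and the young mice. Old mice of each sex received HDM201 at 10 mg/kg or the vehicle alone, phosphate-buffered methylcellulose, by daily gavage for 14 days, and young mice received vehicle only. Read counts were available here for 4 old vehicle, 5 old HDM201 and 5 young vehicle females, and for 4 old vehicle, 5 old HDM201 and 4 young vehicle males. All groups were mice with no engineered allele named in the labels, and the labels call the mice of a group separate replicates. Age and substrain cannot be told apart in the comparison of old with young mice, and sex and age cannot be told apart in the comparison of old females with old males.

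In the liver, fatty acids are activated to acyl-CoA, carried into mitochondria by the carnitine shuttle and shortened by repeated cycles of dehydrogenation, hydration, a second dehydrogenation and thiolysis. Peroxisomes shorten very long and branched chains, and part of the acetyl-CoA becomes ketone bodies. PPARA pairs with the retinoid X receptor on a direct repeat of the hexamer AGGTCA with 1 base between the copies, and it is best known for raising these genes in the fasted liver. HDM201 blocks MDM2, the ubiquitin ligase that keeps p53 low.

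Promoters of the members were examined for that element because PPARA targets are known to carry it, and those of the genes that the results turn on are shown. RefSeq promoters of GRCm38.p6, from 250 bases before to 50 bases after each start site, were matched by symbol for 29 of the 35 members, in 32 entries. No entry was matched for Angptl4, Hsd17b4, Crat, Acaa2, Decr1 and Vnn1. Capitals mark matches to the hexamer or the repeat, which on the opposite strand read TGACCT. Each sequence runs 5′ to 3′ on the strand of its gene. Fabp1 lies at chr6:71199629-71199928 on the plus strand, Cpt1a at chr19:3323051-3323350 on the plus strand and Decr2 at chr17:26090115-26090414 on the minus strand. Hadha and Hadhb, the subunits of the trifunctional protein, start 86 bases apart and head to head, so that the Hadhb window, chr5:30155003-30155302 on the plus strand, also holds most of the Hadha promoter. Acot2, Acot1, Acot4 and Acot3 follow each other on the plus strand of chromosome 12, at chr12:83987611-83987910, chr12:84009252-84009551, chr12:84038129-84038428 and chr12:84051894-84052193.
Fabp1: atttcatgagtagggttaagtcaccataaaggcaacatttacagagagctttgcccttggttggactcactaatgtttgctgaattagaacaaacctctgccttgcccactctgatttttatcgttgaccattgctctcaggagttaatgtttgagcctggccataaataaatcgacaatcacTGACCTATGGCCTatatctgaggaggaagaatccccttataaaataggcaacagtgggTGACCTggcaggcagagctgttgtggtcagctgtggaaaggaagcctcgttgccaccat
Cpt1a: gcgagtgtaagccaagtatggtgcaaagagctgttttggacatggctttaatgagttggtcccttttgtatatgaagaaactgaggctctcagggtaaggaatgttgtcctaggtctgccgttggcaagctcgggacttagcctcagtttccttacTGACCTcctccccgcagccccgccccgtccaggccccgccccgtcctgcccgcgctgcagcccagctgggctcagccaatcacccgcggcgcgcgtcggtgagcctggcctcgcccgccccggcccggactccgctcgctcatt
Decr2: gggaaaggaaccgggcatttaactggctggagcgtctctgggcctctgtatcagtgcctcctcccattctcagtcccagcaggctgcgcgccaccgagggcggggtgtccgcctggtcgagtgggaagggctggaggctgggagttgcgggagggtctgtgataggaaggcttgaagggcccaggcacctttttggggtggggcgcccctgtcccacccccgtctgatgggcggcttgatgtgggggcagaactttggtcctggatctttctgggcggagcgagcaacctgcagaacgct
Hadhb: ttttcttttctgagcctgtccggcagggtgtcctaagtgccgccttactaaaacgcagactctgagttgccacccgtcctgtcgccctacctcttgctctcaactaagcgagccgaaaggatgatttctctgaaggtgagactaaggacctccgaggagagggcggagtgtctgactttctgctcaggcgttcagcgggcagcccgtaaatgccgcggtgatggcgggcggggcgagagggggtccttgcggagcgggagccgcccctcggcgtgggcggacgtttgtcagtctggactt
Acot2: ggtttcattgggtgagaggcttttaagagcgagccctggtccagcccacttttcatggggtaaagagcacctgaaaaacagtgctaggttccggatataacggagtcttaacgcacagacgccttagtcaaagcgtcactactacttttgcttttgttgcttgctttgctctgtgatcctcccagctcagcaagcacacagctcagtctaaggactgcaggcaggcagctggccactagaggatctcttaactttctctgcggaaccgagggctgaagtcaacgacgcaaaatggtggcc
Acot1: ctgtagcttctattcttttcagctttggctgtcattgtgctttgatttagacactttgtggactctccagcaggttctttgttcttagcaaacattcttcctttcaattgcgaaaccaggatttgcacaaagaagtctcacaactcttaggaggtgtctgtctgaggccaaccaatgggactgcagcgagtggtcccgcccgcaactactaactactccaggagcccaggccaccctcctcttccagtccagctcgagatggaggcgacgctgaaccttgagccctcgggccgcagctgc
Acot4: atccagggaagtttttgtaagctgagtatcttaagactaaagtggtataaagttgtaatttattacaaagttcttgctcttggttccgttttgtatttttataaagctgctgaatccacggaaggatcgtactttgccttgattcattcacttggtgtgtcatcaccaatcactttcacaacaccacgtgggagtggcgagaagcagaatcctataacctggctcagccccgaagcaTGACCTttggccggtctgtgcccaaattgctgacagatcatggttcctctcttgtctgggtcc
Acot3: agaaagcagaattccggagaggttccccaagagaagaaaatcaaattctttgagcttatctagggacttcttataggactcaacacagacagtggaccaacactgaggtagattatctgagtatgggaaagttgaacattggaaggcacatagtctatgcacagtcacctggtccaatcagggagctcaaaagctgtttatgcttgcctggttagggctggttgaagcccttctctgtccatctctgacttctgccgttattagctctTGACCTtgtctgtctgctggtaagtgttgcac

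The strict repeat AGGTCANAGGTCA, searched on both strands, was in 13 of all 32851 mouse promoters in the table (0.0396%) and in 0 of the 32 member entries. The looser AGGNCANAGGNCA was in 125 promoters (0.381%) and in 1 member entry, that of Fabp1, where AGGCCATAGGTCA lay on the minus strand at bases -67 to -55 from the start. The single hexamer AGGTCA, which is contained in the strict repeat, was in 16.3% of all promoters and in 7 of the 32 member entries (21.9%), those of Acadm, Acadvl, Acot4, Cpt1a, Fabp1 and both entries of Acot3. In Cpt1a it lay at bases -94 to -89. The windows shown for Decr2, Hadhb, Acot1 and Acot2 held no match, which says only that these letters are not in these windows.

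Total counts ran from 16485900 to 23570458 per mouse (median 19149235), of which the members took 0.625% to 1.10%. Levels are given as CPM, read counts scaled to a common library size with edgeR's factors, and a gene is called when its false discovery rate (FDR) in edgeR's quasi-likelihood test over all genes is under 0.05. Transcripts of the X and Y chromosomes matched the labelled sex of every mouse. Nnt, a gene partly deleted in C57BL/6J, did not tell the labelled substrains apart, at 1.27 to 3.43 CPM in old and 2.24 to 4.41 CPM in young mice, and 8 of 9 hepatocyte markers were found in the table, with summed levels of 82167 to 162670 CPM. Of the members, 12 share exon bases with another annotated gene, the largest shares being 58.2% of the exon bases of Etfb and 42.9% of those of Acadvl. Acaa1a and Acaa1b are 96.5% identical over 1275 coding bases and Acot1 and Acot2 95.5% identical over 1239, so the split of reads within each pair is uncertain.

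Per kilobase of exon, Fabp1, the liver fatty acid carrier, had the highest level of the module in old vehicle females, 1995 CPM per kb ± 257 (SD, n = 4). The thiolases Acaa1b, 521 CPM per kb ± 137, and Acaa2, 490 CPM per kb ± 9.08, came next and overlapped each other. Etfa stood at 159 CPM per kb ± 3.62 and Acadvl at 118 CPM per kb ± 4.55. Ppara itself was at 12.9 CPM per kb ± 1.53. The lowest levels per kilobase were those of Acot1, 7.37 ± 1.67, Pdk4, 4.93 ± 1.38, and Acot2, 4.73 ± 0.949, of which the last 2 did not differ beyond their spread. Averaged as log2(CPM + 1) over the 35 members, the 5 old HDM201 females lay between 7.33 and 7.57, above all 4 old vehicle females (7.18 to 7.29) and all 5 young females (7.12 to 7.26). Males were lower and wider: 6.73 to 7.09 in old vehicle, 6.44 to 7.05 in old HDM201 and 6.73 to 7.51 in young vehicle mice, where young vehicle male 1 alone reached 7.51 well above the next.

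**Figure D1:**
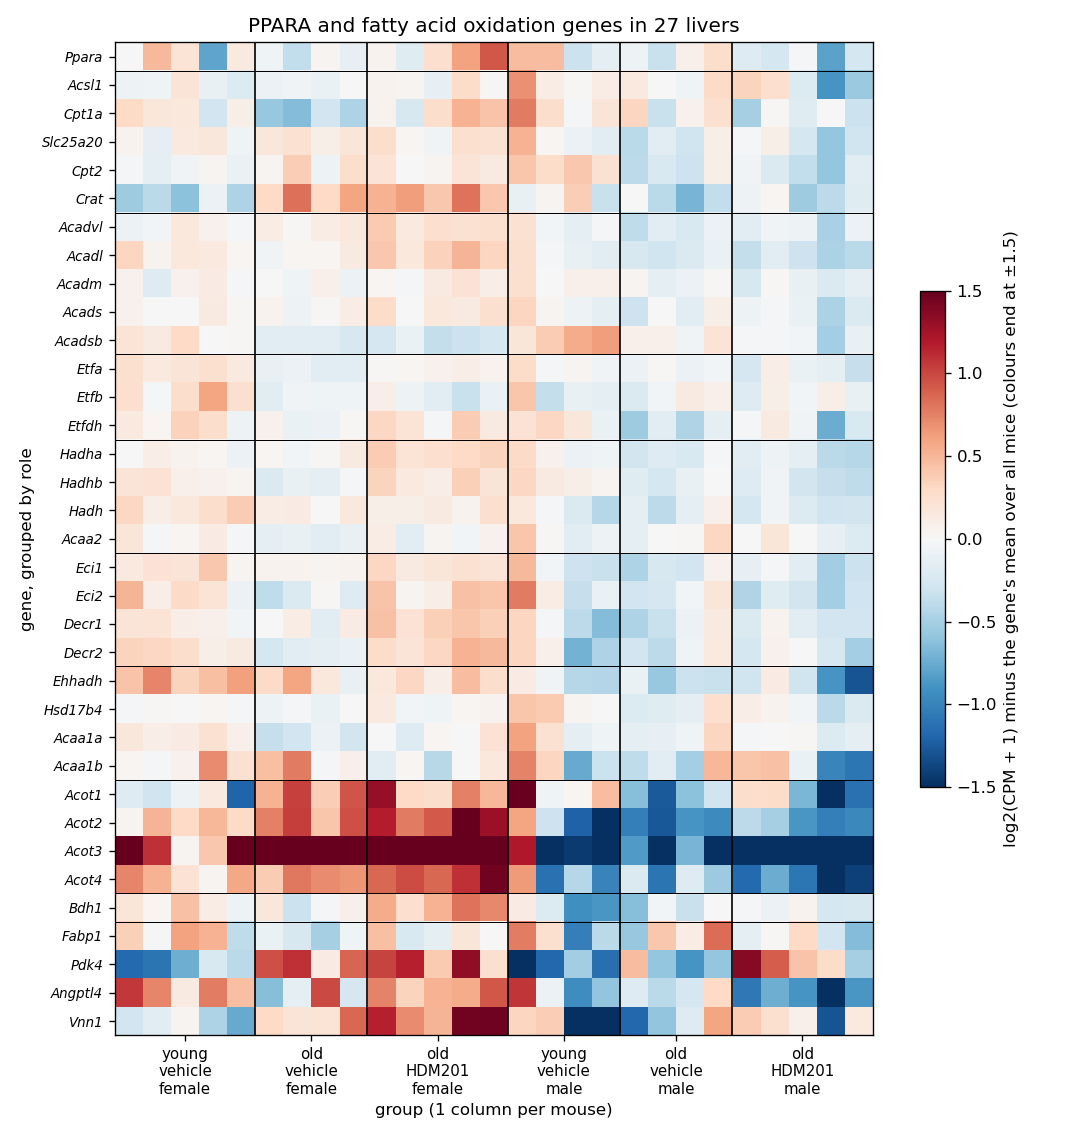
Each row is a member, grouped by role, each column a mouse in its group, and colour is log2(CPM + 1) minus the mean of that gene over the 27 mice, ending at ± 1.5. Acot3 is at or near the red end in most females and the blue end in most males, and young vehicle male 1 is red in most rows.

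The first comparison asked what HDM201 did to these genes in old females. 7 members rose and none fell: Cpt1a, Acadl, Hadhb, Eci2, Decr1, Decr2 and Bdh1, by 22.8% to 63.0%. They made up 20.0% of the members, beside 5.25% of all 14445 genes called in this comparison, and 2.35% of all genes called higher. The count moved with the method: DESeq2 called 11 members and 9.2% of all genes, a single fit of the 6 groups 2 members and 1.36%, and limma on log2(FPKM + 1) 1 member and 1.45%. At an unadjusted p under 0.05, 15 members were higher and 1 lower, where 22.5% of all genes passed in either direction. The log2 fold change was above 0 for 28 of the 35, beside 50.2% of all genes, with a median of 0.16 beside 0.00 for all genes. In 11 members every treated female lay above every vehicle female, where 5.91% of all genes did so. Besides the 7 called, these were Etfa, Hadha, Eci1 and Acot4.

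Among the genes of activation and the carnitine shuttle, Cpt1a encodes the outer-membrane carnitine palmitoyltransferase that sets the rate of entry into mitochondria. Its level was 192, 182, 235 and 208 CPM in the 4 old vehicle females and 297, 243, 346, 413 and 387 CPM in the 5 old HDM201 females. The groups did not overlap, and old HDM201 female 2 was the lowest of the treated mice. The log2 fold change was 0.70 ± 0.14 (SE; edgeR FDR 0.0198). The other shuttle genes stayed close to their vehicle level. Log2 fold changes were 0.10 for Acsl1, the acyl-CoA synthetase of the first step, -0.04 for the carnitine-acylcarnitine carrier Slc25a20, -0.06 for the inner-membrane transferase Cpt2 and 0.02 for carnitine acetyltransferase Crat, and none of these was called.

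The acyl-CoA dehydrogenases open each cycle on chains of different length. Acadl, for long chains, was at 197, 208, 208 and 223 CPM with vehicle and at 270.3, 227, 259, 289 and 255 CPM with HDM201, with no overlap. It rose by 0.30 ± 0.08 on the log2 scale with an edgeR FDR of 0.04998, just under the threshold. Acadvl, Acadm and Acads, for very long, medium and short chains, had log2 fold changes of 0.13, 0.09 and 0.12, and Acadsb, for short branched chains, had -0.10, without calls. Electrons leave these enzymes through the electron transfer flavoprotein, made of Etfa and Etfb, and its dehydrogenase Etfdh. Etfa was tight within groups, at 295, 299, 285 and 286 CPM with vehicle and 323, 323, 334, 339 and 329 CPM with HDM201. Every treated female was higher, yet the log2 fold change of 0.16 ± 0.06 was not called (edgeR FDR 0.117). Etfdh had 0.22 ± 0.09 (edgeR FDR 0.166) and Etfb -0.04.

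Hadha and Hadhb carry out the last 3 steps on long chains. Hadhb, the thiolase subunit, was at 117, 125, 123 and 133 CPM in vehicle and 171, 149.7, 145, 173 and 155 CPM in HDM201 females. It rose by 0.33 ± 0.08 on the log2 scale (edgeR FDR 0.0309), with no overlap between groups. Hadha, the subunit with hydratase and dehydrogenase activity, was at 332, 315, 329.6 and 358 CPM against 422, 373, 385, 401 and 409.7 CPM. Its groups did not overlap either, but its log2 fold change of 0.24 ± 0.07 was not called (edgeR FDR 0.0642). The log2 fold changes were 0.01 for the dehydrogenase Hadh and 0.12 for the thiolase Acaa2.

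The auxiliary enzymes, which move or remove the double bonds of unsaturated chains so that the cycle can proceed, held 3 of the 7 calls, and in all 4 of them the groups did not overlap. Decr2, the peroxisomal dienoyl-CoA reductase, was at 159.7, 171, 174 and 179 CPM with vehicle and 233, 220.1, 239, 277 and 270.1 CPM with HDM201. Its log2 fold change of 0.52 ± 0.08 had the lowest FDR of the module (edgeR FDR 0.00987). Eci2, an enoyl-CoA isomerase, was at 117, 131, 153 and 133 CPM against 205, 157, 163, 206 and 203 CPM, a rise of 0.47 ± 0.11 (edgeR FDR 0.0335). The mitochondrial reductase Decr1 was at 119, 129, 106 and 130.0 CPM against 162, 139, 153, 159 and 154 CPM and rose by 0.32 ± 0.08 (edgeR FDR 0.0377). The mitochondrial isomerase Eci1 differed by only 0.14 ± 0.06 and was not called (edgeR FDR 0.147).

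None of the 4 members listed under peroxisomal beta-oxidation was called. The peroxisomal reductase Decr2, which was called, was listed with the auxiliary enzymes. The bifunctional enzymes Ehhadh and Hsd17b4 had log2 fold changes of -0.01 and 0.06. The thiolase Acaa1a had 0.25 ± 0.09 (edgeR FDR 0.116) and its near-copy Acaa1b -0.44 ± 0.16 (edgeR FDR 0.136), the lowest value of the module. Acaa1b varied widely with vehicle, at 1093, 1371, 784 and 842 CPM, and overlapped its treated values of 720.2, 816, 599, 804 and 891 CPM.

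Bdh1 encodes the dehydrogenase that interconverts acetoacetate and beta-hydroxybutyrate, the last step of ketone body production. Its level was 204, 144, 178 and 191 CPM with vehicle and 267, 214, 259.7, 319 and 299 CPM with HDM201, with no overlap. It rose by 0.58 ± 0.13 on the log2 scale, or 49.8% (edgeR FDR 0.0256). The acyl-CoA thioesterases, which release free fatty acid from acyl-CoA, were not called. Acot4 was at 108, 144, 136 and 132 CPM against 151, 164, 151, 178 and 227 CPM, with a log2 fold change of 0.41 ± 0.13 (edgeR FDR 0.0860). Acot1, Acot2 and Acot3 had -0.09, 0.39 and 0.34.

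Ppara, the regulator, was at 51.5, 41.7, 55.7 and 49.5 CPM with vehicle and 56.2, 47.4, 64.4, 82.5 and 104 CPM with HDM201. The groups overlapped through old HDM201 female 2, and the log2 fold change of 0.50 ± 0.20 was not called (edgeR FDR 0.152). Among the other targets, Vnn1, a pantetheinase, had 0.69 ± 0.22 (edgeR FDR 0.0860) and Angptl4, a secreted lipase inhibitor, 0.49. Fabp1 had 0.27, and Pdk4, the kinase that shuts off pyruvate dehydrogenase, 0.06.

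**Figure D2:**
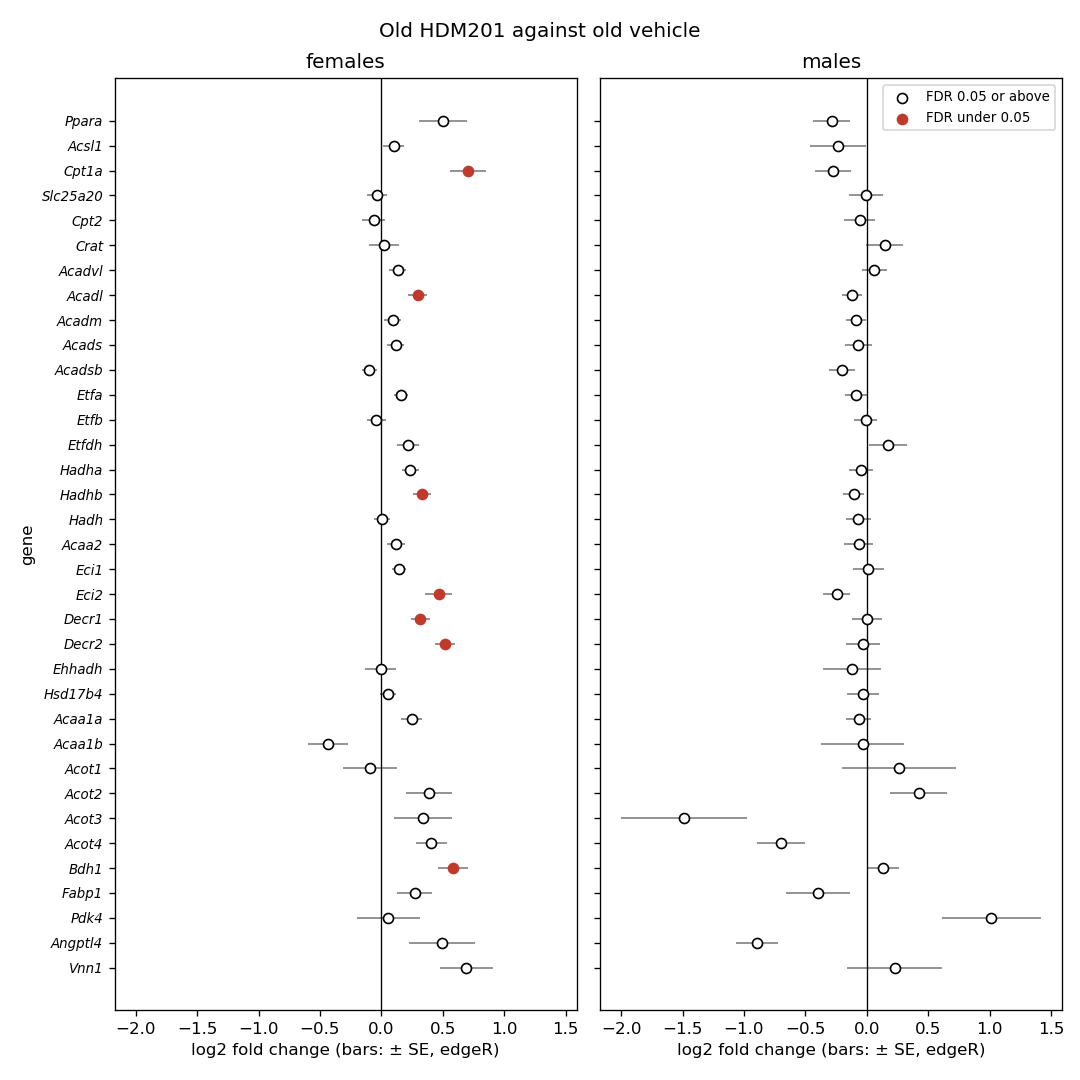
Log2 fold change of each member, old HDM201 against old vehicle, in females (left) and males (right), with bars of ± SE from edgeR and filled points for FDR under 0.05. All 7 filled points are in females and lie between 0.30 and 0.70, and none is in males.

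The number of calls depended on single mice. The counts that follow are of members only, without the share of all genes called in each fit. A loss in the members and a general loss of calls therefore cannot be told apart from these counts alone. With 1 mouse left out at a time, 1 member was called without old vehicle female 2, old vehicle female 4 or old HDM201 female 4, 3 without old vehicle female 1, 4 without old HDM201 female 1 or 5, and 5 to 7 without the others. Decr2 was called in all 9 of these fits, Cpt1a and Bdh1 in 6, Hadhb in 5, Eci2 in 3 and Acadl and Decr1 in 1 each, and all 7 kept log2 fold changes above 0 in each fit. Markers of other cell types differed in the same mice. Of 11 markers of Kupffer cells and macrophages, 10 fell, and their sum was 530 to 1080 CPM in old vehicle and 326 to 527 CPM in old HDM201 females. Cholangiocyte markers summed to 49.6 to 71.2 CPM and 84.0 to 150 CPM, and erythroid markers to 160 to 246 CPM and 17.2 to 162 CPM. No marker of these lists was at 0 in a group. Hepatocyte markers summed to 97597 to 124735 CPM and 104923 to 140165 CPM, which overlapped, and 1 of 8 fell. In whole liver, fewer cells of a type and less RNA per cell cannot be told apart, and the part of these shifts in the changes of the members was not tested.

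**Figure D3:**
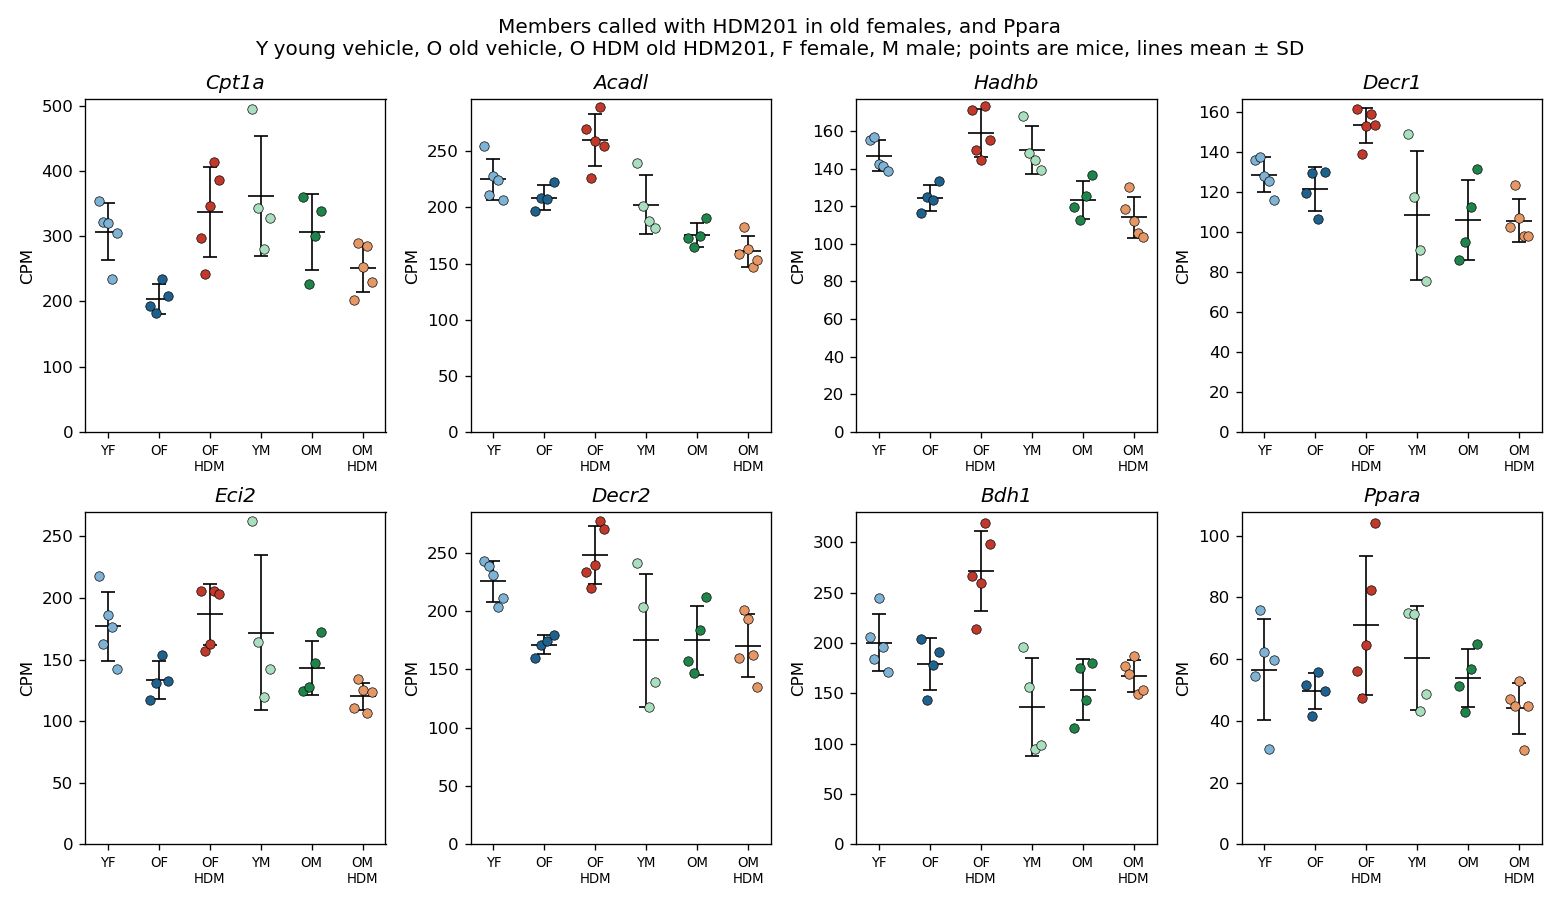
CPM in each mouse (points, with mean ± SD) of the 7 members called in old females and of Ppara, in 6 groups of young vehicle (Y), old vehicle (O) and old HDM201 (O HDM) females (F) and males (M). In the 7 called genes the red points of treated old females lie above the dark blue points of their controls, while the treated and control old males overlap.

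A wider list of 129 other genes of the pathway, of which 125 were tested, showed 9 higher and 2 lower in HDM201-treated old females. Of the 125, 81 were above 0, with a median of 0.10. Over all 14445 genes 5.25% were called, 2.35% were called higher and 50.2% were above 0, with a median of 0.00. The 3 largest rises were those of Fgf21, a fasting hormone of the liver, by 1.90 ± 0.50 (edgeR FDR 0.0491), the fatty acid carrier Fabp2, by 0.90 ± 0.17 (edgeR FDR 0.0155), and Abcd2, a peroxisomal transporter, by 0.76 ± 0.12 (edgeR FDR 0.00960). Hnf4a, a nuclear receptor of hepatocytes, fell by 0.27 and Ppard, a relative of PPARA, fell by 1.26 on the log2 scale (edgeR FDR 0.0320 and 0.0401). By group, 1 of 23 mitochondrial, 3 of 33 peroxisomal, 0 of 7 ketone body and 5 of 41 uptake and storage genes rose, and 2 of 21 partners and coregulators fell. The 0 of 7 ketone body genes stood beside a median log2 fold change of -0.11, while the member Bdh1 rose.

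The same treatment was then examined in old males. 0 members were called with edgeR, in a comparison where 1 of 14109 genes (0.00709%) was called. At an unadjusted p under 0.05, 1 member was higher and 4 lower, beside 12.1% of all genes in either direction. DESeq2 called 1 member, lower, and it also called more of all genes than edgeR. The log2 fold change was below 0 for 25 of 35 members, while 52.8% of all genes were above 0, with a median of -0.07 beside 0.01 for all genes. Angptl4 was the member without overlap, at 68.6, 59.3, 65.8 and 97.2 CPM with vehicle and 36.8, 46.8, 42.1, 26.7 and 42.5 CPM with HDM201, where 4.03% of all genes had no overlap. Its log2 fold change was -0.89 ± 0.17 (edgeR FDR 0.171). Acot4 was at 71.2, 38.3, 72.0 and 56.4 CPM against 36.3, 49.0, 38.6, 28.2 and 30.6 CPM, with -0.70 ± 0.20 (edgeR FDR 0.266). Pdk4 had the highest value, 1.01 ± 0.40 (edgeR FDR 0.365), and Acot3 the lowest, -1.49 ± 0.51 (edgeR FDR 0.314). The genes called in females had -0.28 (Cpt1a), -0.12 (Acadl), -0.11 (Hadhb), -0.25 (Eci2), 0.00 (Decr1), -0.03 (Decr2) and 0.13 (Bdh1). Of the 125 other pathway genes, 0 were called in either direction. In the same males all 5 cholangiocyte, 6 stellate and 6 endothelial markers had log2 fold changes above 0, as had 9 of 11 of Kupffer cells and macrophages. All 4 erythroid markers lay below 0, with sums of 277 to 1104 CPM with vehicle and 97.6 to 201 CPM with HDM201. Of 8 hepatocyte markers 2 lay above 0. None of these markers was called, and their part in the values of the members was not tested.

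Whether the effect of HDM201 differed between the sexes was tested by the interaction term of sex with HDM201 in the 18 old mice. 0 members were called with edgeR, beside 16 of 14974 genes (0.107%). At an unadjusted p under 0.05 there were 15 members, all with the higher effect in females, beside 18.5% of all genes in either direction. DESeq2 called 7 members, and it also called more of all genes than edgeR. With no filter on low counts edgeR called 4 members, given without the share of all genes in that fit. Cpt1a had the lowest p, with a difference of 0.99 ± 0.22 in log2 fold change (edgeR FDR 0.0599). Eci2 followed with 0.72 ± 0.17 and Acot4 with 1.11 ± 0.26 (both edgeR FDR 0.0607), and Angptl4 had 1.39 ± 0.36 (edgeR FDR 0.0704). Left out in turn, old vehicle female 3 gave 4 calls, old HDM201 female 2 gave 1, old vehicle male 3 gave 2, old HDM201 male 2 gave 6 and old HDM201 male 4 gave 3, and the other mice gave 0. These counts too are of members only, without the share of all genes called in each fit. The sexes also differed in age, so sex and age cannot be told apart in this interaction.

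The comparison of old with young vehicle females asked how the module differed between mice that received vehicle only. 14 members were called, 6 higher and 8 lower in old mice. That is 40.0% of the members, beside 31.8% of all 14233 genes (16.8% higher and 15% lower) in edgeR. Limma on log2(FPKM + 1) called 10 members higher and 2 lower, given without its split of all genes. The median log2 fold change was -0.08 beside 0.01 for all genes. In 13 members the groups did not overlap, where 25.9% of all genes had no overlap. The 6 higher were Pdk4, Crat, Acot1, Acot2, Acot3 and Vnn1, and the 8 lower were Cpt1a, Acadsb, Etfa, Etfb, Hadhb, Eci2, Decr2 and Acaa1a.

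Cpt1a was at 354, 322, 320.5, 235 and 305 CPM in young and 192, 182, 235 and 208 CPM in old females. The ranges met at 235 CPM without crossing, and the level fell by 0.57 ± 0.12 on the log2 scale (edgeR FDR 0.00335). Etfa was at 376, 353, 364, 375 and 351 CPM in young and 285 to 299 CPM in old females, a fall of 0.30 ± 0.07 (edgeR FDR 0.00583). Decr2 was at 243, 239, 230.4, 203 and 211 CPM in young females, above the 159.7 to 179 CPM of old ones, and fell by 0.38 ± 0.08 (edgeR FDR 0.00407). Acaa1a fell by 0.37, Eci2 by 0.38, Acadsb by 0.29 and Hadhb by 0.21 on the log2 scale, with edgeR FDRs of 0.00350 to 0.0446. Etfb fell by 0.35 in the counts (edgeR FDR 0.0245), but limma on log2(FPKM + 1), a measure per transcript length, gave 0.42 in the opposite direction. The 58.2% of its exon bases that lie in another gene bear on both measures, and their part was not tested.

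Pdk4 had the largest rise. It was at 3.66, 3.90, 5.31, 7.87 and 6.91 CPM in young and 19.4, 21.4, 10.3 and 18.1 CPM in old females and rose 3.18-fold, by 1.67 ± 0.24 on the log2 scale (edgeR FDR 0.000424), with no overlap. Crat was at 37.5, 41.1, 35.3, 51.6 and 39.5 CPM in young and 67.6, 97.4, 67.5 and 83.3 CPM in old females and rose 1.96-fold (edgeR FDR 0.000282). Of the thioesterases, Acot1 rose by 1.08 ± 0.23, Acot3 by 1.16 ± 0.32 and Acot2 by 0.56 ± 0.16 on the log2 scale (edgeR FDR 0.00382, 0.0150 and 0.0164), and Acot4 had 0.23 without a call. Vnn1 rose by 0.78 ± 0.17 (edgeR FDR 0.00493). Ppara had -0.17 and was not called.

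Leaving out 1 mouse at a time gave 11 to 15 called members, and Cpt1a, Crat, Acadsb, Etfa, Decr2, Acaa1a, Acot1, Pdk4 and Vnn1 were called in all 9 fits. Of the 125 other pathway genes tested, 20 were higher and 38 lower, beside 16.8% and 15% of all genes. Ppard rose by 1.57, the lipase Lpl by 1.31 and the mitochondrial carrier Ucp2 by 1.19, whereas the coactivators Ppargc1b and Lpin1 fell by 1.28 and 1.69 and the carrier Fabp5 fell by 1.73 on the log2 scale. Among mitochondrial genes 1 of 23 rose and 9 fell, and among peroxisomal genes 3 of 33 rose and 13 fell. In the same mice, 11 of 11 markers of Kupffer cells and macrophages rose, with sums of 325 to 474 CPM in young females. Also called higher were 5 of 6 B and plasma cell, 3 of 3 neutrophil and 2 of 5 T and NK markers. So were 2 of 5 cholangiocyte, 2 of 6 stellate, 1 of 6 endothelial and 1 of 4 erythroid markers. Called lower were 2 of 8 hepatocyte, 1 of 6 endothelial, 1 of 2 adipocyte and the 1 pancreas marker tested. The part of these shifts in the values of the members was not tested. Of 17 genes of the circadian clock, 4 rose and 8 fell, and of 16 genes that respond to fasting and feeding, 4 rose and 6 fell, where HDM201 in old females gave 0 and 1, and 1 and 0. Mice were killed in the morning, and the part of food intake and time of day in the values of the members was not tested.

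**Figure D4:**
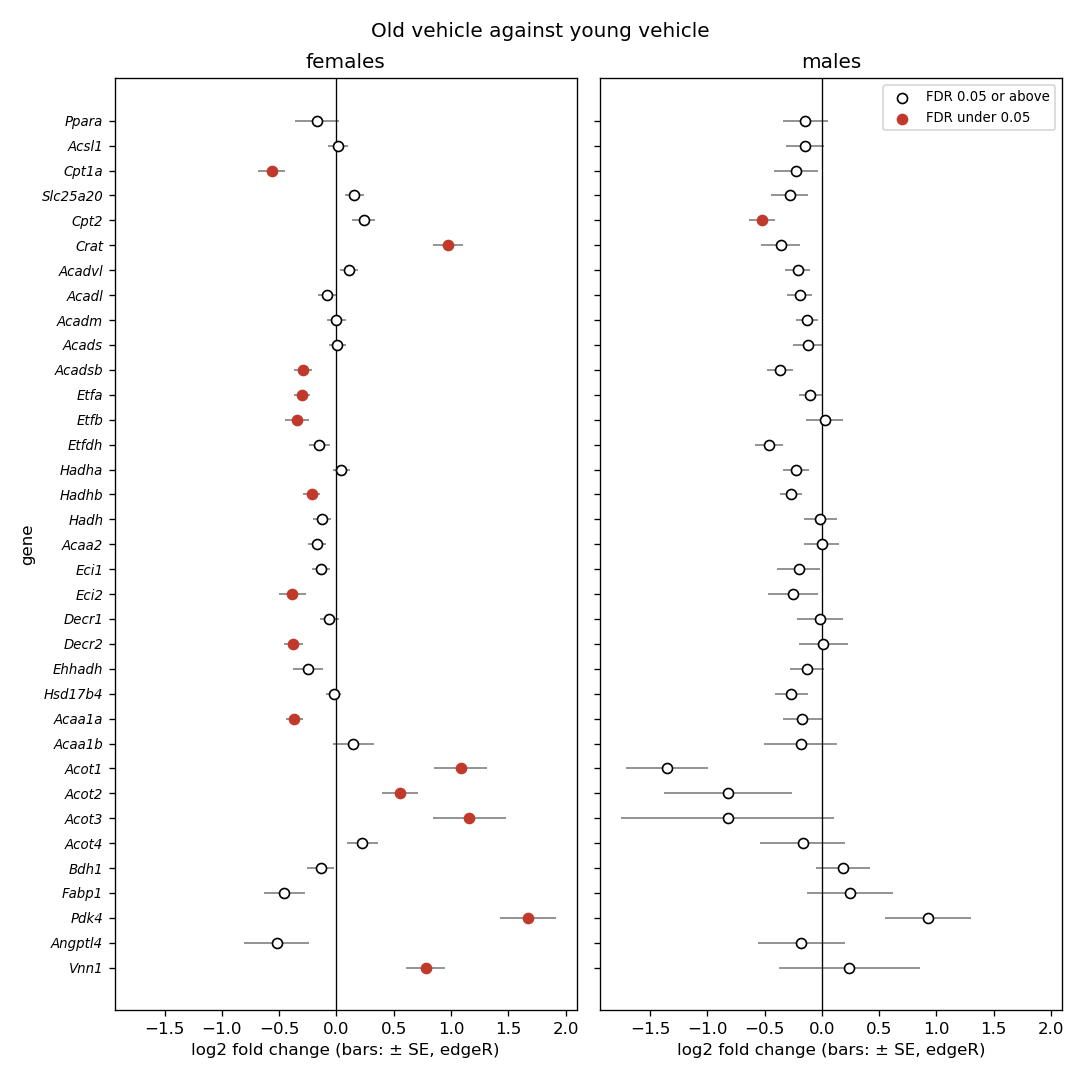
Log2 fold change of each member, old vehicle against young vehicle, in females (left) and males (right), with bars of ± SE from edgeR and filled points for FDR under 0.05. Females show 14 filled points, from -0.57 for Cpt1a to 1.67 for Pdk4, and males show 1, Cpt2.

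The comparisons with age and with HDM201 in females share the 4 old vehicle females, so a mouse that is high or low in that group moves both. Side by side, the log2 values for age and then for HDM201 are given for every member called in either comparison. They were, for the shuttle and the cycle, Cpt1a (-0.57 and 0.70), Decr2 (-0.38 and 0.52), Eci2 (-0.38 and 0.47), Hadhb (-0.21 and 0.33), Acaa1a (-0.37 and 0.25), Etfa (-0.30 and 0.16), Etfb (-0.35 and -0.04), Acadsb (-0.29 and -0.10), Acadl (-0.08 and 0.30) and Decr1 (-0.06 and 0.32). For the ketone body gene Bdh1 they were -0.14 and 0.58. For the other genes they were 1.67 and 0.06 for Pdk4, 0.97 and 0.02 for Crat, 1.08 and -0.09 for Acot1, 1.16 and 0.34 for Acot3, 0.56 and 0.39 for Acot2 and 0.78 and 0.69 for Vnn1. Set against young females, Cpt1a was at 337 CPM ± 68.8 (SD, n = 5) in treated old and 307 ± 44.1 (n = 5) in young females, and Decr2 at 248 ± 24.5 and 225 ± 17.3, with overlapping ranges in both genes. Acadsb was at 95.6 ± 6.80 in treated old and 126 ± 10.9 in young females and Etfa at 329.5 ± 7.08 and 364 ± 11.8, and in these the ranges did not overlap. Vnn1 was at 47.9 CPM ± 13.9 in treated and 29.3 ± 7.26 in vehicle old females, Pdk4 at 18.4 ± 6.06 and 17.3 ± 4.84 and Crat at 81.2 ± 10.1 and 79.0 ± 14.4.

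In males, age gave 1 call, Cpt2, which is 2.86% of the members beside 3.69% of all 13755 genes. Cpt2 was at 154, 139, 153 and 135 CPM in young and 87.9, 98.1, 92.8 and 122 CPM in old males and fell by 0.52 ± 0.11 on the log2 scale (edgeR FDR 0.0362), with no overlap. The call remained in 1 of the 8 fits that left out a mouse, that without old vehicle male 5, and was lost without any other mouse. The log2 fold change was below 0 for 29 of 35 members, while 47.7% of all genes were above 0, with a median of -0.18 beside -0.02 for all genes. Etfdh, Hadhb and Acot1 also had no overlap, all lower in old males, where 6.51% of all genes were lower without overlap. Acot1 had -1.35 ± 0.36 (edgeR FDR 0.0641), with 49.1, 16.1, 17.2 and 23.5 CPM in young and 10.5, 6.43, 10.6 and 13.5 CPM in old males. Of the other pathway genes 0 were higher and 4 lower, among them Acsm3 by 0.85 and the lipid droplet proteins Plin5 and Plin4, which fell by 1.32 and 1.70. In the same males all 11 markers of Kupffer cells and macrophages had log2 fold changes above 0 and 4 were called higher, with sums of 147 to 299 CPM in young and 237 to 694 CPM in old mice. Of 5 B and plasma cell markers tested 4 were called higher, and all 5 cholangiocyte and 6 stellate markers lay above 0 with 1 call in each list. Of 8 hepatocyte markers 0 were called in edgeR and 3 lay above 0, and the part of these shifts in the values of the members was not tested.

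The effect of age differed between the sexes for 3 members in the interaction test, 8.57% beside 3.92% of all genes. For Acot1 the difference was 2.45 ± 0.46 on the log2 scale (edgeR FDR 0.0111), from 1.08 in females and -1.35 in males. For Crat it was 1.34 ± 0.23 (edgeR FDR 0.00755), from 0.97 and -0.36. For Cpt2 it was 0.77 ± 0.15 (edgeR FDR 0.0130), from 0.24 and -0.52. All 3 were called in each of the 17 fits that left out a mouse. Old males were older than old females, so sex and the span of age cannot be told apart in this interaction. Old and young mice also differed in substrain.

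Females and males were compared within each age. In young mice 2 members were called, 5.71% beside 10.5% of all 13875 genes. Ehhadh was at 382, 473, 357, 388 and 435 CPM in females and 309, 273, 211 and 209 CPM in males, higher in females by 0.69 ± 0.14 on the log2 scale (edgeR FDR 0.00865). Cpt2 was lower in females by 0.39 ± 0.08 (edgeR FDR 0.0113; log2 fold change -0.39). This count rested on young vehicle male 1, which had the highest level of the young males in Cpt1a, Acsl1 and all 4 thioesterases. Without it 13 members were called, 11 higher and 2 lower in females, in a fit that called 13.2% of all genes. Without young vehicle female 4 there were 3, in a fit that called 7.99%. In the same mice 9 of 11 markers of Kupffer cells and macrophages were called higher in females, with sums of 325 to 474 CPM in females and 147 to 299 CPM in males, as were 3 of 6 endothelial, 2 of 6 stellate and 2 of 5 cholangiocyte markers. Called lower in females were 1 of 8 hepatocyte and 1 of 4 erythroid markers. The part of these markers in the differences of the members was not tested.

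In old vehicle mice 12 members were called, 10 higher and 2 lower in females. That is 34.3%, beside 18% of all 14088 genes (8.4% higher and 9.6% lower) in edgeR. Limma on log2(FPKM + 1) called 14 members higher and 0 lower, given without its split of all genes. Its fit also held old vehicle male 1, which has no counts. The values that follow are again from the counts. In 11 the groups did not overlap, where 23.1% of all genes had no overlap. The median log2 difference was 0.22 beside 0.00 for all genes. Higher in females were Slc25a20, Crat, Acadvl, Acadl, Ehhadh, Pdk4 and all 4 thioesterases, and lower were Cpt1a, by 0.58, and Acadsb, by 0.25 (log2 differences -0.58 and -0.25). The count was 5 without old vehicle female 1, 6 without old vehicle female 2 or 4, 7 without old vehicle male 4 and 8 to 14 without the others. These counts are of members only, without the share of all genes called in the same fits. Of the other pathway genes, 21 were higher and 12 lower in old females. Markers of other cell types also differed between old females and males. Called higher in females were 5 of 6 endothelial markers, with sums of 153 to 198 CPM and 116 to 134 CPM, and 3 of 11 of Kupffer cells and macrophages, with 530 to 1080 CPM and 237 to 694 CPM. Called lower were 1 of 8 hepatocyte, 1 of 4 erythroid and 1 of 4 T and NK markers. So were both adipocyte markers tested and the 1 pancreas marker tested. Of 17 clock genes 3 were higher and 5 lower. The part of these differences in those of the members was not tested.

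The thioesterases lie together at chr12:83987861-84060402, a stretch of 72.5 kb with 5 protein-coding genes. Acot3 shares 20.6% and Acot4 9.7% of exon bases with other annotated genes. The part of this overlap in their values was not tested. Acot3, whose product is peroxisomal, had the largest sex difference of the module. It was at 111, 225, 114 and 174 CPM in old vehicle females and 17.8, 4.87, 19.9 and 10.0 CPM in old vehicle males, 11.9-fold higher in females, or 3.57 ± 0.41 on the log2 scale (edgeR FDR 0.000612). Acot2, the mitochondrial form, was at 9.96, 12.3, 7.63 and 11.7 CPM in females and 2.19, 1.68, 2.53 and 2.34 CPM in males, 4.76-fold higher (edgeR FDR 8.9e-05). Acot1, the cytosolic form, was 2.82-fold higher and Acot4 2.19-fold higher (edgeR FDR 0.00215 and 0.00378). In young mice the log2 differences were 1.59 for Acot3, 0.89 for Acot2, -0.93 for Acot1 and 0.74 for Acot4, none of them called. There young vehicle male 1 had 76.7 CPM of Acot3 while the other 3 males had 1.89, 11.5 and 4.48 CPM. The promoter windows of Acot1 and Acot2, whose coding sequences were 95.5% identical, were 56.2% identical, and those of Acot3 and Acot4, with 75.2% in the coding sequences, were 60.2% identical.

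**Figure D5:**
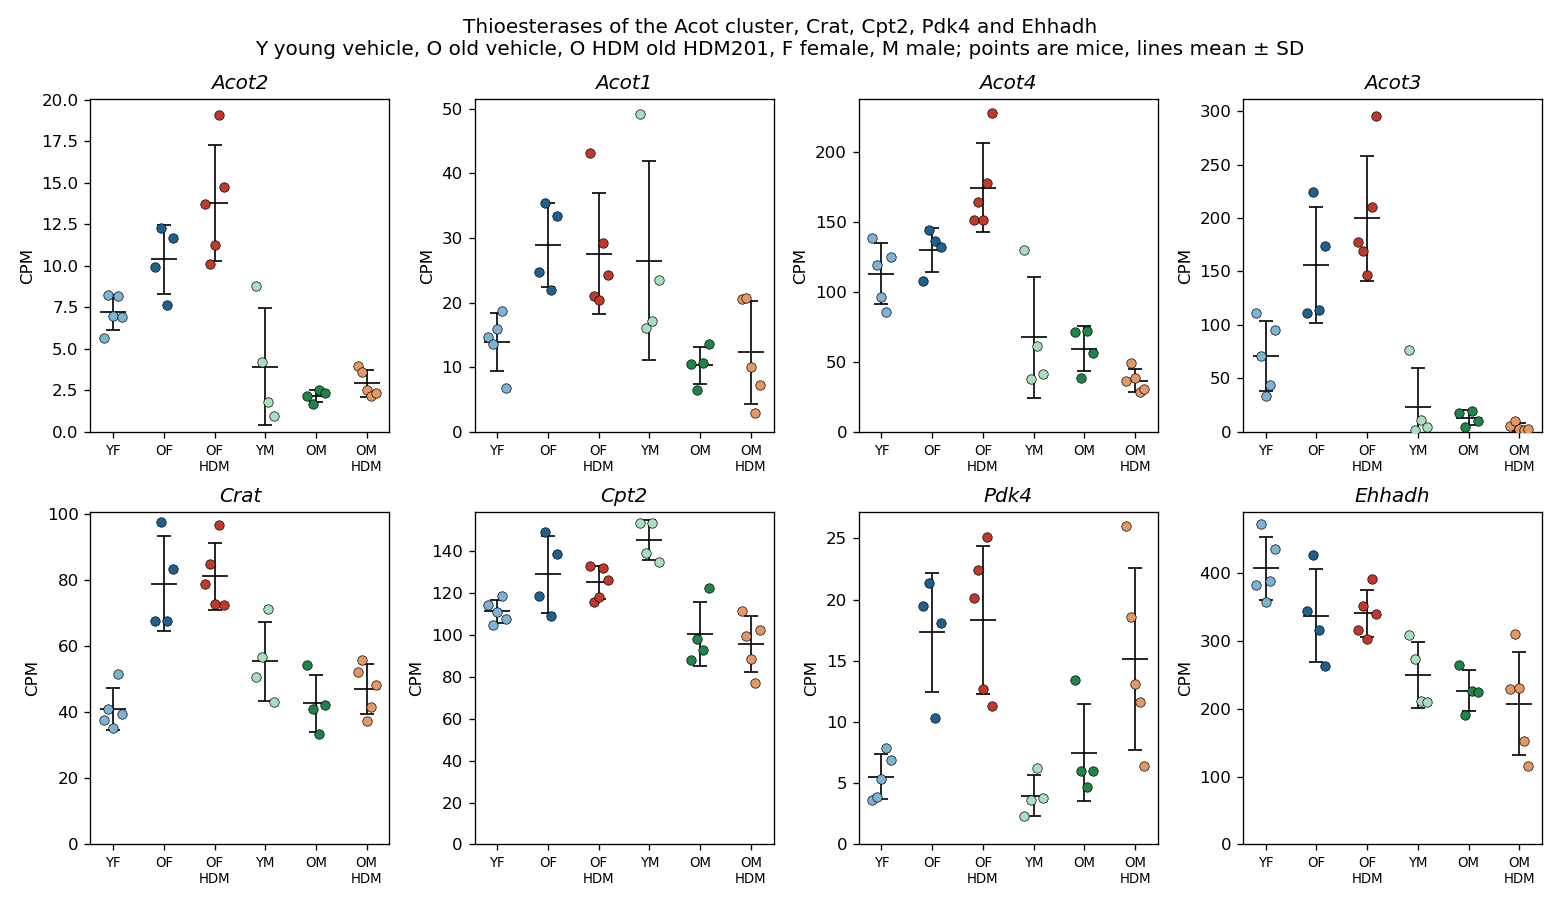
CPM in each mouse (points, with mean ± SD) of the 4 thioesterases, Crat, Cpt2, Pdk4 and Ehhadh in the 6 groups, with the letters Y, O, F, M and HDM as in the plot of the members called with HDM201. Acot3 lies between 111 and 225 CPM in old vehicle females and between 4.87 and 19.9 CPM in old vehicle males, and young vehicle male 1 is the single high green point in the thioesterases.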

How the data were processed

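Bulk RNA-seq measured whole liver of both sexes. Per the labels and methods, the authors used STAR (2-pass) on mm10, SAMtools for filtering, HTSeq for the counts and Cufflinks for FPKM; versions, annotation release and strand setting are not given in the sources used here. The deposited counts are whole numbers without normalization. The deposited FPKM values, scaled by the authors for transcript length and depth, served only as an alternative. Counts were available here for 27 mice and FPKM for 29. The count table used here has no column for young vehicle male 5 or old vehicle male 1. Fits on FPKM used every mouse with FPKM. Where vehicle males were compared, they therefore differ from the fits on counts in the mice as well as the measure.

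Every comparison had its own fit, over the mice it compares, by the quasi-likelihood F test of edgeR 4.0.16 in R 4.3.3. Low genes were dropped by filterByExpr (counts of at least 10, 15 in total), libraries were scaled by TMM, and calls had a Benjamini-Hochberg FDR under 0.05 over all genes tested, after the scripts were tested on simulated data. The methods name DESeq2, without settings. Alternatives were RLE size factors, DESeq2 1.42.0, all genes without the low-count filter, a single fit of the 6 groups, a block for the replicate number, limma 3.58.1 on log2(FPKM + 1) with a minimum of 0.5, and each mouse left out. The p-values measure the spread between these mice.

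All 35 members are reported; of the other pathway genes, those with the 3 largest rises and 3 largest falls among the called genes of each comparison are named. The members, gene lists, tests and alternatives were chosen with earlier results of these data known. Exon lengths and overlaps come from GENCODE vM21 on GRCm38, where 54673 of 55421 gene IDs matched with their version. Coding identity was computed over the longest open reading frames of 1 transcript per gene.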

Additional observations from a re-analysis of the deposited data

Results flagged for a closer look

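In groups of 4 or 5 mice, 11 of 210 pairs of a member and a group (5.24%) held 1 mouse that stood apart from the others by Dixon's criterion at 95%, where chance alone flags about 1 in 20 groups. Young vehicle male 1 stood apart in 2 members, with 1009 CPM of Acsl1, where the other 3 males had 631 to 676, and 76.7 CPM of Acot3, where they had 1.89 to 11.5. Old vehicle male 5 was high for Hsd17b4, at 401 CPM beside 291 to 306, and for Acaa1a, at 239.8 CPM beside 173 to 183. Old HDM201 male 4 was low for Acadvl, at 211 CPM beside 265 to 284, for Acadsb, at 79.7 CPM beside 106 to 113, and for Vnn1, at 8.21 CPM beside 22.8 to 28.5. Old vehicle female 4 was high for Vnn1, at 40.1 CPM beside 25.0 to 26.9, and old vehicle female 1 was low for Etfb, at 74.4 CPM beside 79.3 to 80.3. Young vehicle female 4 was high for Acaa1b, at 1306 CPM beside 791 to 939.9, and old vehicle male 2 was high for Pdk4, at 13.4 CPM beside 4.65 to 6.00.

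The effect of age differed between females and males, by the interaction term of edgeR, for Crat, Cpt2 and Acot1. The log2 differences were 1.34 for Crat (from 0.97 and -0.36), 0.77 for Cpt2 (0.24 and -0.52) and 2.45 for Acot1 (1.08 and -1.35). Old males were older than old females, so sex and the span of age cannot be told apart here.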

How the results depend on the processing

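With RLE size factors every count of called members was the same as with TMM. The counts here are of members only, and totals over all genes are given below for some of these fits. For the other fits, these counts alone do not show whether calls changed in the members or in general. For HDM201 in old females the 7 called members became 11 with DESeq2, 2 with all 6 groups in one fit and 1 with limma on log2(FPKM + 1), and 1 to 7 with a mouse left out. For HDM201 in old males the 0 became 1 with DESeq2 and 1 with no filter on low counts, and stayed 0 with any mouse left out. For age in females the 14 became 9 with all 6 groups in one fit, and 11 to 15 with a mouse left out. For age in males the 1 became 4 with DESeq2, 3 with no filter, 5 with all 6 groups and 0 with FPKM, and 0 to 1 with a mouse left out. For sex in young mice the 2 became 5 with DESeq2, 6 with no filter, 6 with all 6 groups and 1 with FPKM, and 2 to 13 with a mouse left out. For sex in old mice the 12 became 5 to 14 with a mouse left out. For the interaction of sex and HDM201 the 0 became 7 with DESeq2 and 4 with no filter, and 0 to 6 with a mouse left out. For the interaction of sex and age the 3 became 1 with FPKM, and 3 to 4 with a mouse left out. Etfb reversed under limma on log2(FPKM + 1) in the comparison of age in females, with 0.42. The causes of these differences were not tested. Of the 39 calls of a member in a comparison, DESeq2 and RLE size factors kept 39, no filter 35, all 6 groups 26 and FPKM 19.

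Mice of different groups shared only a replicate number: the deviations of same-numbered mice had correlations between -0.23 and 0.24, and 7 of 22 such pairs matched each other best. With the replicate number as a block, 4 members were called for HDM201 in old females (Cpt1a, Decr2 and Bdh1 of the 7, and Vnn1), 0 for age in males and 6 for sex in old mice, and 23 of the 39 calls were kept.

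Over all genes, the 758 calls for HDM201 in old females became 1329 with DESeq2, 208 with all 6 groups, 366 with the block and 198 with FPKM. Those for HDM201 in old males went from 1 to 171 with DESeq2, and those of the interaction of sex and HDM201 from 16 to 682. Low members such as Acot2, Acot1 and Pdk4, and Acot3 in males, rest on the fewest reads.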

Other observations

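Outside the 35 members, other genes of the pathway also differed between the sexes with vehicle. In young mice 11 of 125 were higher and 7 lower in females, where 10.5% of all genes were called. The highest differences were in Abcd2, a peroxisomal transporter of very long chain acyl-CoA, at 1.84 ± 0.15 on the log2 scale (edgeR FDR 1.17e-05), the fatty acid carrier Fabp5, at 1.29 ± 0.31, and the acyl-CoA dehydrogenase Acad12, at 0.68 ± 0.11. The lowest were in Plin4, a lipid droplet protein, at -1.21 ± 0.31, Scp2, a peroxisomal thiolase and sterol carrier, at -1.13 ± 0.12 (edgeR FDR 9.81e-05), and Nudt7, a peroxisomal hydrolase of CoA, at -0.89 ± 0.14.

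In old vehicle mice, where 18% of all genes were called, 21 of 125 were higher and 12 lower. The highest differences were in Ppard, at 1.75 ± 0.32, Abcd2, at 1.43 ± 0.24, and Hacl1, a peroxisomal lyase of branched chains, at 1.35 ± 0.15 (edgeR FDR 0.000431). The lowest were in Nudt7, at -2.04 ± 0.36, Fabp5, at -1.38 ± 0.20, and the acyl-CoA synthetase Acsl4, at -1.20 ± 0.20. Abcd2 was higher and Nudt7 lower in females at both ages, and Fabp5 was higher in young and lower in old females. In the interaction of sex with age, old minus young differences between females and males were -2.66 ± 0.42 for Fabp5 (edgeR FDR 0.00313), -1.14 ± 0.39 for Nudt7 (edgeR FDR 0.0976) and -0.39 ± 0.30 for Abcd2 (edgeR FDR 0.490), values looked up after these genes' sex differences were seen.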
